A study of Homo sapiens with 36 samples.

Results

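The cytoplasmic step from day 2 to day 7 of a 5-fluorouracil response was examined in HCT116, an established human colorectal cancer line. Its members were chosen by label alone: the 3 cytoplasmic RNA libraries of day 7 were set against the 3 cytoplasmic RNA libraries of day 2, 6 of the 36 libraries used. Cells were given 10 µM 5-fluorouracil for 48 h, and collections were made before the drug (day 0) and on days 1, 2, 7, 14 and 16. Each day has 3 cytoplasmic libraries and 3 libraries from heavy polysomes, the pooled gradient fractions whose mRNAs carry more than 3 ribosomes. Both groups are therefore drug-exposed samples of 1 line with no engineered genotype named, and neither has an untreated sample of the same day. What the medium held on day 7 is not described. The 3 libraries of a day carry the letters A, B and C, which the labels call a batch. No label says that they came from separate cultures, so p-values measure only the spread between libraries of a day, which may be technical. For the cytoplasmic step, that spread was pooled over all 18 cytoplasmic libraries, those of the other days included.

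5-Fluorouracil is converted in cells to nucleotides that inhibit thymidylate synthase and enter RNA and DNA. This damage activates the transcription factor p53, whose targets include the cell cycle inhibitor CDKN1A, and cell cycle arrest follows. HCT116 cells retain a functional p53 and are a common model of this arrest and of the recovery of surviving cells after the drug.

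All values are read counts per gene divided by 1 size factor per library (normalised read counts), on 15891 genes. The 6 libraries held between 41959627 and 103630224 reads on these genes, so counting error was small for named genes with high values. In the day-7 library A, 1 read is a value of 2.07. The lowest values there, as for DLL4, SEMA6A and PRC1 below, therefore rest on a few reads, and their counting error is large. Of 12 epithelial markers of this line, 8 had values, with a sum of 9638 to 10915 CPM at day 2 and 10932 to 14977 at day 7. Of 31 markers of other lineages, 10 had values, and their sum was 41.2 to 66.0 CPM at day 2 and 15.8 to 26.7 at day 7. The day-7 library A stood apart from its group. In it, 23.8% of the 15889 genes tested differed by more than 2-fold from the mean of libraries B and C, which differed from each other by more than 2-fold at 5.14% of genes. The day-2 library A stood apart less, at 15.6% of genes. Both A libraries were low in long transcripts relative to their groups (correlation across genes of the deviation with log2 exon length of -0.30 at day 7 and -0.54 at day 2) and high in ribosomal protein mRNA, whereas the day-2 library C was high in long transcripts (0.46). The step from day 2 to day 7 itself fell with exon length, with a correlation across genes of -0.29. It was -0.16, -0.18 and -0.40 within letters A, B and C, -0.20 without the day-7 library A and -0.22 in heavy polysomes. The median exon length was 4280 bases over all genes. In the lists described below it was 1614 for histones, 1952.5 for skin-type epithelium, 2539 for mitochondrial ribosomal proteins and 3055.5 for cytosolic ribosomal proteins. It was 4510.5 for ribosome biogenesis, 3569.5 for p53 targets, 5979 for YAP targets and 6169.5 for Notch. The part of library A or of transcript length in the results was not tested. Counts of genes that rose and fell are therefore followed by the same counts without the day-7 library A, where the background was 4.34% rising and 7.43% falling, and with the letter as a block (15.6% and 16.6%) or under total-sum scaling (6.21% and 11.8%) where that moved a count by over 1.5 times. The fit without the day-7 library A keeps the day-2 library A, also low in long transcripts and high in ribosomal protein mRNA. In these bulk samples, fewer cells of a type and less RNA per cell cannot be told apart.

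Between day 2 and day 7, 3377 of 15889 genes changed (21.3%; limma on log2(value + 1), adjusted p under 0.05). Of these, 1506 rose (9.48%) and 1871 fell (11.8%). These shares are the background for the list counts below. At least 2-fold changes numbered 879 upward (5.53%) and 1258 downward (7.92%). The values of the 2 days did not overlap at 5291 genes (33.3%). The median difference over all genes was 0.02 on the log2 scale, and 3354 of the 3377 called genes moved in 1 direction within each of the 3 letters. The genes were called from these same libraries, so that agreement is not independent evidence. With the letter as a block, 5120 genes were called (32.2%), 2482 higher and 2638 lower. Single libraries weighed on the count: 1870 genes (11.8%) were called without the day-7 library A, 1458 without the day-2 library B and 1890 without the day-2 library C. With a letter left out on both days, 3476 were called without A (1711 higher, 1765 lower), 1658 without B and 1418 without C. Without the day-2 library A, 5000 were called, and the rises among them numbered 2592. With only the 6 libraries of these days in the fit, so that no other day lent its spread, 1070 were called. Under scaling by total sum, which shifted the median gene to -0.19, 987 rose and 1867 fell (18% of genes in all), so the share of rises among calls went from 44.6% to 34.6%.

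HES1, a transcriptional repressor induced by Notch signalling, had the smallest standard error among the 12 largest rises. Its normalised counts were 778, 588 and 606 at day 2 and 5079, 5139 and 5456 at day 7. The 3 libraries of day 7 lay within a narrow band far above those of day 2 (log2 difference 3.00 ± 0.19, limma adjusted p = 7.28e-08, n = 3 libraries a day, as for all differences below). Before the drug HES1 stood at 1102 ± 140.1 (SD), so day 2 was below and day 7 above the starting level. The gene lies at chr3:194136145-194138732 (GRCh38). Its promoter is shown because it holds 2 copies of TGGGAA, the core letters of the site for RBPJ, the DNA-binding partner of Notch. The window runs from 250 bases before to 50 after the RefSeq start (GRCh38.p14, chr3:194135898-194136197, plus strand), with those letters in capitals.
HES1: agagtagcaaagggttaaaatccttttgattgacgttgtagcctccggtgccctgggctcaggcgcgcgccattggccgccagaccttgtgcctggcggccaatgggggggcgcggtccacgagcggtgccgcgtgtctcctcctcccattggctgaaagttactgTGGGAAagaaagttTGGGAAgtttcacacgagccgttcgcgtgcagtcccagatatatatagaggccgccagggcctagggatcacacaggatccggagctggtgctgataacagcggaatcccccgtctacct
TGGGAA, searched on both strands, occurred in 21.3% of 10730 such windows and in 4 of 19 windows of the Notch list.

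Most other called members of the Notch list moved the other way. In that list 2 of 22 rose and 6 fell (1 and 5 without the day-7 library A, 1 and 5 under total-sum scaling), with a median of -0.41. NOTCH3, a receptor, had 1363, 2882 and 2486 at day 2 and 397, 693 and 698 at day 7, with no overlap (log2 difference -1.89 ± 0.38, limma adjusted p = 0.00289). DLL4, a ligand, was at 66.0, 117 and 99.5 at day 2 and 4.13, 10.9 and 4.67 at day 7 (log2 difference -3.72 ± 0.56, limma adjusted p = 0.00034). NOTCH1 also fell (log2 difference -1.71 ± 0.41, limma adjusted p = 0.0085), a call lost in 3 of the 23 alternatives tried, at adjusted p up to 0.0558. The second gene to rise, NRARP, a feedback inhibitor of the pathway, had a difference of 0.60 ± 0.19, and without the day-7 library A it did not pass, at 0.53 (limma adjusted p = 0.105).

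NRG1, with the largest rise of the 12, encodes neuregulin, a ligand of the ERBB receptors ERBB3 and ERBB4. Its counts were 221, 105 and 164 at day 2 and 2136, 1607 and 1881 at day 7, a rise of 11.9-fold (log2 difference 3.57 ± 0.33, limma adjusted p = 7.7e-06). All 3 libraries of day 7 were above 1600, and before the drug the mean was 34.8 ± 5.01 (SD). KRTAP3-1, a keratin-associated protein of hair, had 933, 529.7 and 614 at day 2 and 7054, 5280 and 7287 at day 7 (log2 difference 3.27 ± 0.44, limma adjusted p = 0.00014). Both days stood above the mean before the drug, 18.4 ± 12.9 (SD). RPL22L1, a paralogue of ribosomal protein L22, had 3618, 1892 and 1719 at day 2 and 49383, 16554 and 16348 at day 7 (log2 difference 3.38 ± 0.37, limma adjusted p = 2.14e-05). The day-7 library A was far above libraries B and C, and without it the difference was 2.85 (limma adjusted p = 3.63e-05). ATOH8, a helix-loop-helix transcription factor, rose, with 15.3, 13.5 and 7.55 at day 2 and 219, 72.5 and 64.2 at day 7 (log2 difference 3.01 ± 0.42, limma adjusted p = 0.000201). Here too the day-7 library A was the highest of its group, with no overlap between days. TM4SF18, CLEC2D, H2AC25, HMGN5, EIF5B, RPL36A and LRRCC1 complete the 12 largest rises, at 2.36 to 2.85. HMGN5, EIF5B and LRRCC1 did not pass without the day-7 library A, at adjusted p of 0.117, 0.0603 and 0.0835.

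The largest fall was that of NGFR. This gene, the low-affinity neurotrophin receptor, had 1409, 2750 and 2362 at day 2 and 72.4, 114 and 146 at day 7, 19.5-fold lower (log2 difference -4.29 ± 0.37, limma adjusted p = 3.12e-06). AQP3, a water and glycerol channel, was measured at 5225, 4930 and 3942 at day 2 and 325, 352 and 306 at day 7. Both groups were tight and far apart, a 14.2-fold fall (log2 difference -3.83 ± 0.20, limma adjusted p = 5.48e-09). Its mean before the drug was 386 ± 48.0 (SD). PTAFR, the receptor for platelet-activating factor, which is outside the 12 largest falls, had 3215, 5588 and 4742 at day 2 and 250.1, 534 and 459 at day 7 (log2 difference -3.48 ± 0.34, limma adjusted p = 8.75e-06). It stayed above its mean before the drug, 42.1 ± 9.80 (SD). CSPG4, a membrane proteoglycan, fell, with 456, 828 and 562 at day 2 and 20.7, 70.1 and 24.5 at day 7 (log2 difference -4.13 ± 0.47, limma adjusted p = 3.2e-05). CREB3L1 and CREB3L3, membrane-bound transcription factors of the endoplasmic reticulum, had log2 differences of -4.15 and -4.24, with values of 2.07 to 25.4 at day 7. The others of the 12 largest falls, CHST1, GLIS1, IL10RA, SEMA6A, HAP1, LAMP3 and ITGAM, lay between -4.01 and -3.73. The call held without the day-7 library A for all 12, but the size of several moved by over 1.5 times. SEMA6A, a semaphorin, had 229, 441 and 487 at day 2 and 4.13, 68.9 and 53.7 at day 7, and without that library its difference went from -3.77 to -2.57 (limma adjusted p = 0.000128). Without it CHST1 was at -2.94, CREB3L1 at -3.31, GLIS1 at -3.17, IL10RA at -2.94, HAP1 at -3.16 and LAMP3 at -2.93, so which genes are the 12 largest rests in part on it.

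**Figure D1:**
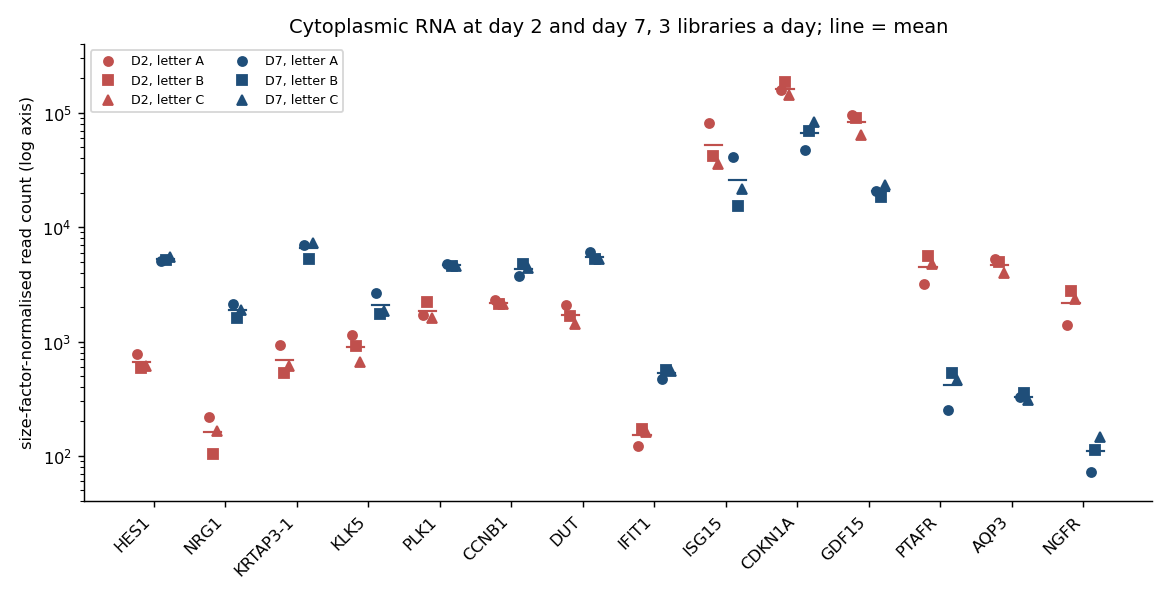
Normalised read counts (vertical log axis) of 14 genes in the 3 cytoplasmic libraries of day 2 (red) and of day 7 (blue), symbols for the letters A, B and C and a line at each mean. HES1 lies between 588 and 778 at day 2 and between 5079 and 5456 at day 7, and ISG15 is the gene shown whose days overlap.

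Among p53 targets, 0 of 34 rose and 18 fell (0 and 15 without the day-7 library A, 2 and 20 with the letter as a block), with a median of -0.74. CDKN1A, the p21 inhibitor of cyclin-dependent kinases, had 157942, 185950 and 143274 at day 2 and 46909, 68937 and 82612 at day 7. The day-7 library A was the lowest and every library of day 7 was below every library of day 2 (log2 difference -1.33 ± 0.23, limma adjusted p = 0.000996). The call was lost when only the 6 libraries of these days entered the fit (limma adjusted p = 0.0575). CDKN1A still exceeded its mean before the drug, 7111 ± 584 (SD). GDF15, a secreted stress cytokine, had 96490, 90020 and 64215 at day 2 and 20625, 18462 and 23289 at day 7 (log2 difference -1.99 ± 0.18, limma adjusted p = 6.33e-06). The 3 letters agreed closely at day 7. PLK3, a stress-responsive kinase, fell by 1.72, and the death receptor genes TNFRSF10B and TNFRSF10A by 1.72 and 1.23 on the log2 scale. MDM2, the ubiquitin ligase that degrades p53, did not pass the test. Its counts were 9254, 9173 and 14265 at day 2 and 8352, 8285 and 7928 at day 7 (log2 difference -0.38 ± 0.31, limma adjusted p = 0.386), with the day-2 library C far above A and B.

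In the apoptosis list, 1 of 29 rose and 6 fell (1 and 4 without the day-7 library A, 4 and 7 with the letter as a block, 0 and 5 under total-sum scaling). BAK1, an effector of mitochondrial permeabilisation, fell by 1.19 and TNFRSF1A, a receptor for tumour necrosis factor, by 1.39. The one rise was CASP8, the initiator caspase of death receptors, at 0.75 ± 0.18, a call lost in 4 of the 23 alternatives.

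A part of the cell cycle genes rose. Of the mitosis list, 8 of 38 rose and 1 fell (6 and 0 without the day-7 library A, 9 and 2 with the letter as a block, 5 and 0 under total-sum scaling), a share of rises of 21.1% beside 9.48% over all genes, with a median of 0.44. The list was not uniform over letters: its median was 0.54 in A, 0.75 in B and -0.20 in C. PLK1, a kinase of mitotic entry, had 1691, 2214 and 1594 at day 2 and 4792, 4582 and 4577 at day 7 (log2 difference 1.36 ± 0.20, limma adjusted p = 0.000315). The 3 libraries of day 7 nearly coincided, below the mean before the drug, 15089 ± 1719 (SD). CCNB1, cyclin B1, had 2312, 2143 and 2120 at day 2 and 3715, 4739 and 4379 at day 7 (log2 difference 0.96 ± 0.15, limma adjusted p = 0.000373), also below its mean before the drug, 9586 ± 389 (SD). MAD2L1, a spindle checkpoint protein, rose by 1.19 ± 0.25. The fall was that of PRC1, which bundles spindle microtubules, with 58.3, 128 and 196 at day 2 and 6.20, 85.8 and 44.4 at day 7. The groups overlapped, the day-7 library A held 6.20, and without it the difference was -0.87 (limma adjusted p = 0.254).

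Promoters of mitosis genes are known for 2 short elements, the CCAAT box and the cell cycle genes homology region (CHR), searched here as TTTGAA alone. Both strands of the 33 windows available for the mitosis list were searched. TTTGAA was found in 23, or 69.7%, beside 9.43% of all 10730 windows, and CCAAT in 26, or 78.8%, beside 36.7%. Of the 6 genes with a window that rose, 5 held TTTGAA and 6 held CCAAT. PRC1, the 1 gene that fell, also held both. The windows of PLK1 (chr16:23678639-23678938, plus strand) and CCNB1 (chr5:69166900-69167199, plus strand) are shown as those of the kinase and the cyclin described above, with CCAAT and, in PLK1, TTTGAA in capitals.
PLK1: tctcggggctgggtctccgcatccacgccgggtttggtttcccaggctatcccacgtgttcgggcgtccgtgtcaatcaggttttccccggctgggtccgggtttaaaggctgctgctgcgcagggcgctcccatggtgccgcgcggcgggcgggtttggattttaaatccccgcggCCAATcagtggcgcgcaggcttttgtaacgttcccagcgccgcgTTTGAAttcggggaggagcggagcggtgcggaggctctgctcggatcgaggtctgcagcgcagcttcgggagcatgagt
CCNB1: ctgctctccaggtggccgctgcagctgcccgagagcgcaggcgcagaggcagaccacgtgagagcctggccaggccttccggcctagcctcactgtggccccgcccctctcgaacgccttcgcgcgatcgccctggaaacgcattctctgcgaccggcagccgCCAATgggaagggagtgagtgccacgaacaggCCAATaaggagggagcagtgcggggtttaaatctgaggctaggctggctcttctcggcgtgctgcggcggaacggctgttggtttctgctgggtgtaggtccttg
The window of CCNB1 holds CCAAT at 2 places and no TTTGAA, and no other letters were searched for the CHR.

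Among DNA replication genes, 6 of 36 rose and 1 fell (4 and 0 without the day-7 library A, 10 and 3 with the letter as a block, 2 and 1 under total-sum scaling). MCM3, a subunit of the replicative helicase, had 2857, 3304 and 3128 at day 2 and 5797, 6481 and 5835 at day 7 (log2 difference 0.96 ± 0.16, limma adjusted p = 0.000697), without overlap. ORC6, of the origin recognition complex, rose by 1.28 ± 0.27. MCM2, of the same helicase as MCM3, was measured at 1924, 2667 and 2318 at day 2 and 2423, 3176 and 3191 at day 7 and did not pass (log2 difference 0.35 ± 0.28, limma adjusted p = 0.384). PCNA, the polymerase clamp and also a p53 target, was the fall (log2 difference -0.63 ± 0.19, limma adjusted p = 0.0267), and its call was lost in 7 of the 23 alternatives, among them the one without the day-7 library A (adjusted p = 0.12).

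In the list of fluoropyrimidine and nucleotide enzymes, 4 of 27 rose and 3 fell (3 and 2 without the day-7 library A, 7 and 3 with the letter as a block), shares of 14.8% and 11.1% beside 9.48% and 11.8% of all genes. DUT, which hydrolyses dUTP and so keeps uracil out of DNA, had 2068, 1687 and 1411 at day 2 and 6084, 5279 and 5235 at day 7 (log2 difference 1.70 ± 0.22, limma adjusted p = 0.000127). Its mean before the drug, 6946 ± 551 (SD), was above the values of both days. TYMS, thymidylate synthase and the target of the drug, had 12462, 8286 and 7246 at day 2 and 18779, 14795 and 14181 at day 7 (log2 difference 0.80 ± 0.19, limma adjusted p = 0.00675), and its call was lost in 2 of the 23 alternatives. SLC29A1, a nucleoside transporter, had a log2 difference of -1.28 ± 0.24. TK1, thymidine kinase, had 20111, 18377 and 14859 at day 2 and 10545, 10071 and 11891 at day 7 (log2 difference -0.71 ± 0.19, limma adjusted p = 0.0142), lost in 4 of the 23 alternatives. RRM2, the small subunit of ribonucleotide reductase, had 18146, 18564 and 18480 at day 2 and 10074, 13611 and 11994 at day 7. The day-2 libraries nearly coincided (log2 difference -0.64 ± 0.16, limma adjusted p = 0.0115), and without the day-7 library A the difference was -0.53 (limma adjusted p = 0.0533).

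Of histone genes in these poly(A)-selected libraries, 12 of 17 rose and 0 fell (8 and 0 without the day-7 library A). Their median of 1.12 was the highest of the 38 lists. The list joins canonical histones, whose mRNAs normally lack a poly(A) tail, and variants that carry one. H2BC5, a canonical H2B, had 2148, 992 and 1001 at day 2 and 7054, 3428 and 4033 at day 7 (log2 difference 1.84 ± 0.32, limma adjusted p = 0.000996). Library A was the highest on both days. H1-2, a linker histone, had 735, 467 and 335 at day 2 and 1133, 1360 and 1538 at day 7 (log2 difference 1.45 ± 0.24, limma adjusted p = 0.000826), and there library A was the lowest at day 7. Histone genes have near-identical copies, so the split of reads between them is uncertain. CCAAT was present in 13 of 16 histone windows.

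The count of ribosomal protein genes that rose depended on which libraries were left out and on the block. Of cytosolic ribosomal protein genes, 10 of 80 rose and 0 fell (3 and 0 without the day-7 library A, 37 and 0 with the letter as a block), with a median of 0.66. The share of rises was 12.5% beside 9.48% of all genes. Without that library the median was 0.22, but that fit kept the day-2 library A, also high in ribosomal protein mRNA. With letter A left out on both days, 34 rose and 0 fell, with a median of 0.61. Over all genes 1711 rose in that fit. The median within letters A, B and C was 0.83, 0.41 and 0.79. The list took 17.7%, 11.8% and 11.7% of reads at day 2 and 23.1%, 15.0% and 16.2% at day 7 in A, B and C. The share was higher at day 7 within each letter, but the groups overlapped (exact two-sided permutation test, p = 0.30, where 3 against 3 cannot go below 0.10). In the heavy polysomes of the same days the share lay between 6.20% and 7.11%, and 15 genes of the list rose and 23 fell, where 28.7% of all genes rose and 28.3% fell. RPL3, a core protein of the large subunit, had 104320, 75461 and 66868 at day 2 and 230368, 159699 and 163803 at day 7 (log2 difference 1.17 ± 0.21, limma adjusted p = 0.00118), and without the day-7 library A 1.00 (limma adjusted p = 0.00394). RPLP0, of the ribosomal stalk, had 337419, 289272 and 233067 at day 2 and 227044, 294773 and 354478 at day 7 and did not pass (log2 difference 0.02 ± 0.21, limma adjusted p = 0.955).

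Of ribosome biogenesis factors, 14 of 40 rose and 0 fell (9 and 0 without the day-7 library A, 6 and 0 under total-sum scaling), a share of rises of 35.0% beside 9.48% of all genes. The median was 0.45, 0.42 and 0.52 in A, B and C. NOP56, a core protein of box C/D snoRNA complexes, had 8927, 5880 and 5734 at day 2 and 29738, 15031 and 16770 at day 7 (log2 difference 1.55 ± 0.23, limma adjusted p = 0.000309). UTP20, of the small-subunit processome, had 101, 144 and 155 at day 2 and 314, 344 and 332 at day 7. Its libraries agreed within each day (log2 difference 1.32 ± 0.23, limma adjusted p = 0.00101). NPM1, nucleophosmin, rose by 1.65 ± 0.40. In the list of elongation and other translation factors with terminal oligopyrimidine mRNAs, 4 of 15 rose and 1 fell (3 and 0 without the day-7 library A, 7 and 1 with the letter as a block). EEF1A1, the elongation factor that delivers tRNA, had a difference of 0.56 ± 0.21 (limma adjusted p = 0.0628), which passed with the letter as a block (adjusted p = 0.0337).

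Of aminoacyl-tRNA synthetase genes, 4 of 20 rose and 0 fell (2 and 0 without the day-7 library A, 6 and 1 with the letter as a block, 0 and 0 under total-sum scaling). In the ATF4 list, the targets of the amino acid stress response, 5 of 25 rose and 0 fell (5 and 0 without the day-7 library A, 3 and 0 under total-sum scaling). ATF4 itself had 27952, 16626 and 15401 at day 2 and 69347, 36171 and 38961 at day 7 (log2 difference 1.26 ± 0.24, limma adjusted p = 0.00207), and CHAC1, a glutathione-degrading enzyme, rose by 1.19 ± 0.28. SLC7A11, the cystine transporter, had 90.5, 94.7 and 157 at day 2 and 211, 167 and 160.0 at day 7 and did not pass (log2 difference 0.68 ± 0.32, limma adjusted p = 0.132). Of initiation and mTOR genes, 2 of 29 rose and 2 fell (1 and 1 without the day-7 library A, 4 and 2 with the letter as a block, 1 and 2 under total-sum scaling). Each share was 6.90%, under the 9.48% and 11.8% of all genes.

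Of mRNAs encoded by mitochondrial DNA, 0 of 13 rose and 6 fell (0 and 11 without the day-7 library A), with a median of -1.08. Without that library the median was -1.60. MT-ND6, a subunit of complex I, had 8273, 6200 and 3420 at day 2 and 2780, 873 and 666 at day 7. The day-7 library A was far above B and C, but below every library of day 2 (log2 difference -2.25 ± 0.40, limma adjusted p = 0.00118), and without it the difference was -2.87 (limma adjusted p = 3.63e-05). Mitochondrially encoded genes took 13.6%, 11.5% and 8.36% of reads at day 2 and 9.29%, 4.62% and 3.57% at day 7. Each letter fell, while the groups overlapped (exact two-sided permutation test, p = 0.20). The protocol removed mitochondria by centrifugation, and the part of that step in these shares was not tested. In the nuclear-encoded respiratory chain list, 4 of 35 rose and 1 fell (0 and 1 without the day-7 library A, 18 and 1 with the letter as a block). The shares were 11.4% and 2.86% beside 9.48% and 11.8% of all genes. With letter A left out on both days, 14 rose and 1 fell, with a median of 0.66. Of mitochondrial ribosomal proteins, 8 of 34 rose and 0 fell (3 and 0 without the day-7 library A, 13 and 0 with the letter as a block, 5 and 0 under total-sum scaling). With letter A left out on both days, 12 of them rose and 0 fell.

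**Figure D2:**
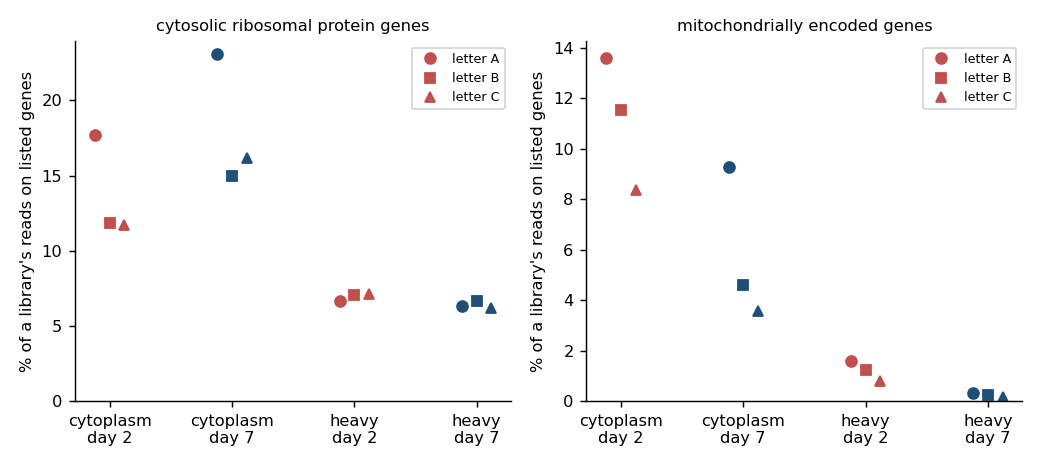
Share of each library's reads on listed genes (vertical axis, %) that fell on cytosolic ribosomal protein genes (left) and on mitochondrially encoded genes (right), by fraction and day, with a symbol for each letter. The cytoplasmic library A of day 7 is the highest for ribosomal protein genes at 23.1%, whereas the 3 heavy-polysome libraries of day 7 lie between 6.20% and 6.69%.

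In the unfolded protein response list, genes by which the endoplasmic reticulum folds and clears proteins, 0 of 22 rose and 10 fell (0 and 6 without the day-7 library A, 1 and 10 with the letter as a block), with a median of -0.44. PDIA4, a disulfide isomerase, had 6595, 8884 and 7200 at day 2 and 2636, 3333 and 3413 at day 7 (log2 difference -1.27 ± 0.18, limma adjusted p = 0.000266). Every library of day 7 was below every library of day 2. CALR, the lectin chaperone calreticulin, had 32817, 37077 and 28252 at day 2 and 17036, 15306 and 16258 at day 7 (log2 difference -1.01 ± 0.17, limma adjusted p = 0.001). Its window (chr19:12938359-12938658, plus strand) is shown because it holds the endoplasmic reticulum stress element on the minus strand (CCAAT, 9 bases of any kind, then CCACG, searched on both strands), with the fixed letters in capitals.
CALR: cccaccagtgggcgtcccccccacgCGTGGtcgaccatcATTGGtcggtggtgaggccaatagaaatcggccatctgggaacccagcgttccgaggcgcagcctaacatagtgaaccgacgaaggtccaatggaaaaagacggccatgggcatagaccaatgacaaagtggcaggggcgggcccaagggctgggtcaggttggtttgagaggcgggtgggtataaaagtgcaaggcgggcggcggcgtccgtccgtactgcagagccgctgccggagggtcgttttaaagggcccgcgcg
That element was in 14 of 10730 windows and in 6 of the 21 of this list, and 2 of the 9 windows of genes that fell held it, those of CALR and CANX. CALR was chosen after its values and letters were seen. A match is a run of letters and shows no binding.

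Of cholesterol genes, 0 of 24 rose and 7 fell (0 and 5 without the day-7 library A). CYP51A1, a demethylase of the sterol pathway, had 93.6, 238 and 391 at day 2 and 70.3, 60.4 and 53.7 at day 7 (log2 difference -1.74 ± 0.39, limma adjusted p = 0.00559), a call lost in 3 of the 23 alternatives, at adjusted p up to 0.0798 without letter C. The letters TCACNCCAC, of the sterol regulatory element, were in 1 of 18 windows of this list and in 0.988% of all windows, on either strand, and in none of the 3 windows of genes that fell. Of fatty acid genes, 0 of 12 rose and 2 fell (0 and 1 without the day-7 library A), with FADS1, a desaturase, at -1.53 ± 0.21. In the lysosome and autophagy list, 1 of 30 rose and 11 fell (0 and 9 without the day-7 library A, 0 and 13 under total-sum scaling). NPC1, a lysosomal cholesterol transporter, had 671, 1080 and 1003 at day 2 and 376, 271 and 320.0 at day 7 (log2 difference -1.49 ± 0.25, limma adjusted p = 0.000869). NEU1, a sialidase, had a difference of -1.37 ± 0.20. The rise was MAP1LC3B, of autophagosomes, at 0.57 ± 0.16, a call lost in 8 of the 23 alternatives.

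Among interferon-stimulated genes, 2 of 27 rose and 5 fell (3 and 3 without the day-7 library A), shares of 7.41% and 18.5% beside 9.48% and 11.8% of all genes. IFIT1, which binds foreign RNA, had 123, 171 and 162 at day 2 and 471, 563 and 557 at day 7 (log2 difference 1.81 ± 0.35, limma adjusted p = 0.00241). Its day-2 values were near the mean before the drug, 151 ± 17.6 (SD). IFIT3 had 85.9, 83.4 and 79.0 at day 2 and 839, 246 and 325 at day 7 (log2 difference 2.28 ± 0.45, limma adjusted p = 0.00237), with the day-7 library A the highest. OASL, an oligoadenylate synthetase-like protein, went the other way, with 1501, 2216 and 1885 at day 2 and 488, 582 and 626 at day 7 (log2 difference -1.71 ± 0.25, limma adjusted p = 0.000315). ISG15, a ubiquitin-like modifier, had 80805, 41942 and 35523 at day 2 and 40932, 15177 and 21390 at day 7. Library A was the highest on both days and the groups overlapped (log2 difference -1.06 ± 0.34, limma adjusted p = 0.0335), a call lost in 7 of the 23 alternatives. IFIT1 rose and ISG15 fell, and both windows hold the interferon-stimulated response element (GAAA, 2 bases of any kind, then GAAA), in capitals below for IFIT1 (chr10:89392373-89392672, plus strand) and ISG15 (chr1:1013247-1013546, plus strand).
IFIT1: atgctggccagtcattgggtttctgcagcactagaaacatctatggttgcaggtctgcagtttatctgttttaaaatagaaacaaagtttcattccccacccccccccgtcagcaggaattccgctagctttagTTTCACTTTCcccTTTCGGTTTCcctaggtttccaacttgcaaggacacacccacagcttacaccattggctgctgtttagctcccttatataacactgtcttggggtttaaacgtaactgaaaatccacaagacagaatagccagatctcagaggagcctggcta
ISG15: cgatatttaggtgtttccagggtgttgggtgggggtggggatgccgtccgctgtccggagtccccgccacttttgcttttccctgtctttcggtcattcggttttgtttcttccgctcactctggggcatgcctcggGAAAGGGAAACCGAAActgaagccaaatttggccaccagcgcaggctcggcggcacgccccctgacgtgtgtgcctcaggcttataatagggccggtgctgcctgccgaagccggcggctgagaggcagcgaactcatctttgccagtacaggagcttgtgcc
Searched on both strands, with overlapping matches allowed, it was in 2.67% of all windows and in 16 of the 21 windows of the list, including those of 2 genes that rose and 2 that fell. In the antigen presentation list, 0 of 14 rose and 4 fell (1 and 2 without the day-7 library A). TAP1, of the peptide transporter, fell by 1.25 and HLA-B by 0.96 on the log2 scale.

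In the NF-kB and secretory list, 3 of 22 rose and 8 fell (1 and 7 without the day-7 library A, 1 and 8 under total-sum scaling). ICAM1, an adhesion molecule for leukocytes, had 646, 983 and 753 at day 2 and 99.2, 109 and 111 at day 7 (log2 difference -2.87 ± 0.30, limma adjusted p = 1.71e-05). IL11, a cytokine, fell by 2.44. Against these, LCN2, an iron-binding secreted lipocalin, had 425, 270.5 and 206 at day 2 and 1739, 1109 and 1413 at day 7 and rose without overlap (log2 difference 2.28 ± 0.27, limma adjusted p = 4.61e-05).

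In the epithelial junction and keratin list, 3 of 34 rose and 13 fell (0 and 8 without the day-7 library A). CDH1, E-cadherin, had 1188, 2497 and 2419 at day 2 and 517, 545 and 444 at day 7. The day-2 library A was the lowest of its day, and all of day 7 was lower still (log2 difference -1.95 ± 0.27, limma adjusted p = 0.000198). DSG2, a desmosomal cadherin, fell by 1.89 and PRSS8, a membrane protease, by 1.86. KRT8 and KRT18, keratins of simple epithelium, had differences of 0.67 ± 0.21 and 0.84 ± 0.23, called with all libraries and lost without the day-7 library A (adjusted p = 0.0652 and 0.0753). NECTIN4, an adhesion molecule, had 2647, 2716 and 2322 at day 2 and 1112, 905 and 1019 at day 7 (log2 difference -1.34 ± 0.21, limma adjusted p = 0.000516), all above its mean before the drug, 42.8 ± 10.7 (SD).

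In the list of skin-type and cornified epithelium, 11 of 24 rose and 6 fell (8 and 4 without the day-7 library A). The list was chosen with earlier results of these data known, so its count is not independent evidence of a direction. KLK5, a serine protease of the outer skin, had 1134, 908 and 658 at day 2 and 2683, 1755 and 1859 at day 7 (log2 difference 1.23 ± 0.26, limma adjusted p = 0.00384). KLK10, of the same family, rose by 1.38 ± 0.19 and KRT13, a keratin of stratified mucosa, by 1.83 ± 0.38. KRTAP2-1, KRTAP2-2, KRTAP2-3 and KRTAP2-4 rose by 1.16 to 1.27, but they are near-identical copies and count as 1 observation. Hair and skin genes also fell: LGALS7B, galectin 7, had 1295, 613 and 490.2 at day 2 and 118, 50.7 and 102 at day 7 (log2 difference -3.09 ± 0.60, limma adjusted p = 0.00209), and KRT81, a hair keratin, had a difference of -1.81 ± 0.32. Both have near-identical neighbours.

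Of YAP targets, 0 of 21 rose and 9 fell (0 and 5 without the day-7 library A), with a median of -0.77. AXL, a receptor tyrosine kinase, had 2325, 4788 and 4283 at day 2 and 254, 678 and 785 at day 7 (log2 difference -2.82 ± 0.42, limma adjusted p = 0.000313). CCN2, a matricellular protein, had 219, 302 and 338 at day 2 and 16.5, 139 and 94.6 at day 7. The day-7 library A was the lowest by far, and without it the difference was -1.29 (limma adjusted p = 0.0153). In the ERBB list, 1 of 25 rose and 9 fell (1 and 6 without the day-7 library A, 2 and 14 with the letter as a block). The rise was NRG1. HBEGF, a ligand of the epidermal growth factor receptor, had 1100, 1624 and 1402 at day 2 and 86.8, 333 and 426 at day 7 (log2 difference -2.55 ± 0.41, limma adjusted p = 0.000604), and without the day-7 library A the difference was -1.85 (limma adjusted p = 0.000401). TGFA, another ligand of that receptor, fell by 1.37. ERBB3, a receptor of NRG1, had 1082, 1090 and 1056 at day 2 and 558, 625 and 429 at day 7 (log2 difference -1.02 ± 0.23, limma adjusted p = 0.0064).

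Among genes of Wnt signalling and stem cells, 3 of 16 rose and 4 fell (3 and 3 without the day-7 library A). AXIN2, a feedback inhibitor of the pathway, had 101, 163 and 159.8 at day 2 and 260.5, 495 and 424 at day 7 (log2 difference 1.45 ± 0.29, limma adjusted p = 0.00261), below its mean before the drug, 564 ± 56.3 (SD). RNF43, a ligase that removes Wnt receptors, rose by 1.06 ± 0.19 and SP5, a Wnt-induced factor, by 1.49 ± 0.36. The falls included DKK1, a secreted antagonist, at -0.92 ± 0.17. Of mesenchymal genes, 2 of 16 rose and 4 fell (0 and 3 without the day-7 library A, 1 and 4 under total-sum scaling). FN1, fibronectin, had 324, 723 and 806 at day 2 and 119.9, 95.4 and 51.4 at day 7 (log2 difference -2.76 ± 0.43, limma adjusted p = 0.000497). COL6A1, a collagen, fell by 1.78 and ITGA5, an integrin that binds fibronectin, by 1.65. The genes named here are falls only. The median of the list was -0.51, but its summed reads were higher at day 7 within each letter. They were 616, 626 and 574 CPM at day 2 and 742, 689 and 776 at day 7. Of intestinal differentiation genes, 0 of 4 rose and 1 fell (0 and 1 without the day-7 library A, 0 and 2 with the letter as a block). The fall was HNF4A, a nuclear receptor, at -1.19 ± 0.32, a call lost in 5 of the 23 alternatives.

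In the senescence list, 5 of 26 rose and 6 fell (1 and 6 without the day-7 library A, 3 and 6 under total-sum scaling). E2F7, a repressor of cell cycle genes, had 713, 1704 and 2048 at day 2 and 275, 373 and 298 at day 7 (log2 difference -2.11 ± 0.35, limma adjusted p = 0.000742). LMNB1, lamin B1, whose loss is a common mark of senescence, had 898, 1269 and 1230 at day 2 and 1168, 2403 and 1789 at day 7. It did not pass (log2 difference 0.61 ± 0.23, limma adjusted p = 0.0632), but passed with the letter as a block (adjusted p = 0.0337) and without the day-7 library A, at 0.89 (limma adjusted p = 0.0122). Among G1 cyclins and kinases, 1 of 19 rose and 1 fell (0 and 1 without the day-7 library A, 3 and 2 with the letter as a block, 0 and 1 under total-sum scaling). Each share was 5.26%, under the 9.48% and 11.8% of all genes. CDK2, a kinase of S-phase entry, was the fall, at -0.79 ± 0.16. Of DNA repair genes, 3 of 31 rose and 1 fell (2 and 0 without the day-7 library A, 1 and 1 under total-sum scaling), MSH6, of mismatch repair, rising by 1.27 ± 0.28. The share of rises, 9.68%, was near that of all genes, and the share of falls was 3.23%. Of glycolysis and hypoxia genes, 3 of 28 rose and 3 fell (1 and 3 without the day-7 library A, 4 and 8 with the letter as a block, 1 and 3 under total-sum scaling). Both shares were 10.7%, near those of all genes. SLC2A3, a glucose transporter, was the largest fall (log2 difference -2.02 ± 0.28, limma adjusted p = 0.000149). Of drug efflux and detoxification genes, 0 of 22 rose and 6 fell (0 and 3 without the day-7 library A, 1 and 7 with the letter as a block). HMOX1, haem oxygenase, had 3882, 4391 and 3514 at day 2 and 655, 1161 and 1384 at day 7 (log2 difference -1.94 ± 0.26, limma adjusted p = 0.000127), and ABCC2, an efflux pump, fell by 1.16. Of nuclear-retained and snoRNA host RNAs, 3 of 10 rose and 0 fell (2 and 0 without the day-7 library A), with SNHG1 at 0.93 ± 0.19. Of the epithelial markers of the line, 2 of 8 rose and 2 fell (0 and 1 without the day-7 library A, 1 and 2 under total-sum scaling), and of the markers of other lineages, 0 of 10 rose and 6 fell (0 and 6 without the day-7 library A).

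**Figure D3:**
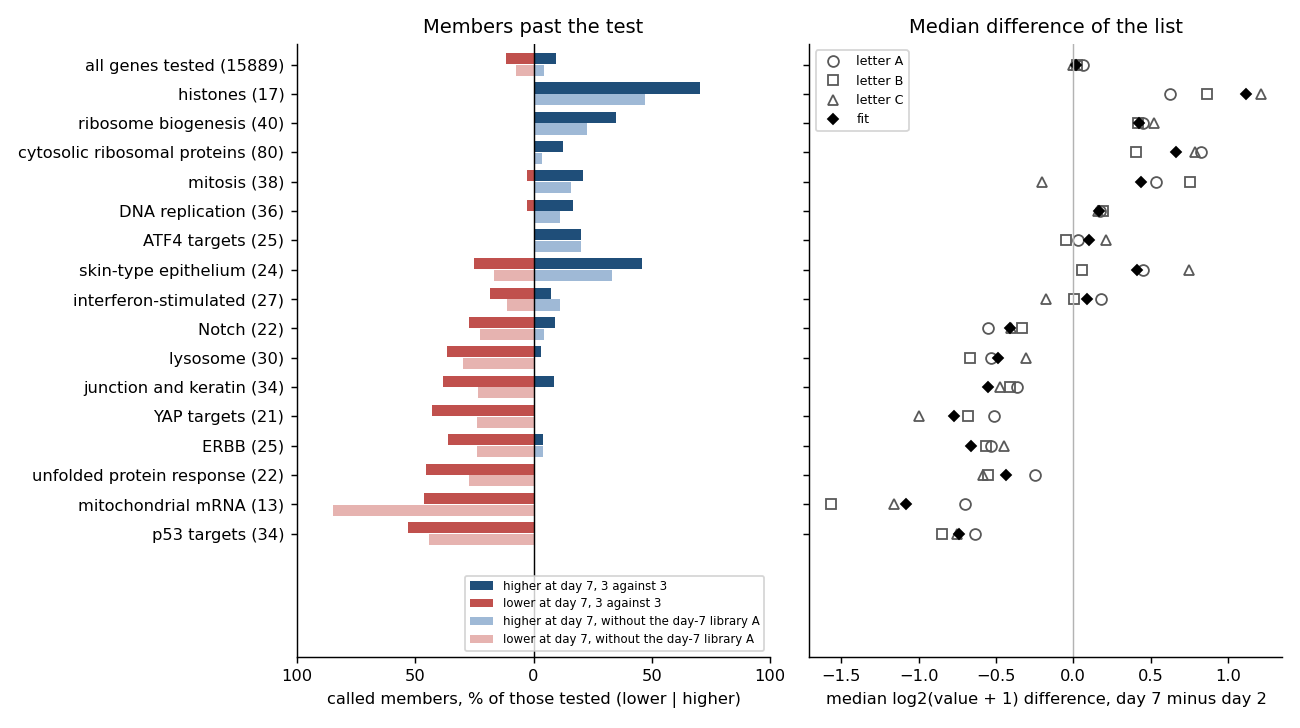
Left, percentage of tested members called lower (red, leftward) or higher (blue, rightward) at day 7 in 16 lists and over all genes, with the number tested in brackets and paler bars for the fit without the day-7 library A. Right, median log2(value + 1) difference in the fit (diamonds) and within each letter (open symbols); p53 targets lie between -0.85 and -0.64 in the 3 letters.

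The heavy-polysome libraries of the same days and letters varied less within a day. The SD across genes of a library's log2 deviation from the mean of the other letters was 0.25 to 0.31 there and 0.49 to 1.00 in the cytoplasm. In heavy polysomes 9046 of 15852 genes changed (57.1%), 4555 upward (28.7%) and 4491 downward (28.3%). Of the 3377 genes called in the cytoplasm, 2948 were also called in heavy polysomes, 87.3% of the first list and 32.6% of the second, and 2934 of them moved in 1 direction. Across the 15850 genes tested in both, the correlation of the 2 steps was 0.72 (description only, since genes are not independent and both fractions carry the same letters). Within letters it was 0.45 in A, 0.66 in B and 0.63 in C. HES1, NRG1 and AQP3 had differences of 3.12, 2.99 and -3.52 in heavy polysomes. In the p53 list 27 of 34 fell there, in the unfolded protein response list 17 of 22, and all 13 mitochondrial mRNAs. In the DNA replication list 30 of 36 rose there, and MCM2 was among them (log2 difference 1.40, limma adjusted p = 2.68e-08).

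The difference between the 2 steps was tested as an interaction, and 44 of 15891 genes passed (0.277%), 37 with the higher step in heavy polysomes (0.233%) and 7 with the lower (0.0441%). Of these 44, 14 are annotated as pseudogenes, whose reads may come from their parent genes. Of 934 genes in the lists or named, 4 passed. CCNB1 rose by 2.17 in heavy polysomes against 0.96 in the cytoplasm (difference 1.21 ± 0.16, limma adjusted p = 0.000347). CDC20, an activator of the anaphase-promoting complex, and CCNB2, cyclin B2, differed by 1.00 and 0.75, each at adjusted p = 0.0368. RRM2 had a difference of 0.24 in heavy polysomes against -0.64 in the cytoplasm (limma adjusted p = 0.0368 for the difference between them). PRC1, lower in the cytoplasm, rose in heavy polysomes by 0.66 (limma adjusted p = 0.000863), but the difference between the steps did not pass (limma adjusted p = 0.0971). BAK1, also lower in the cytoplasm, had a heavy-polysome difference of -0.18 that did not pass (limma adjusted p = 0.0952), and neither did the difference between its steps (limma adjusted p = 0.0726). With the letter as a block, 139 genes passed, 112 with the higher step in heavy polysomes. The count fell to 15 without the cytoplasmic day-7 library A. It was 26 without letter A, 3 without letter B and 2 without letter C, and 0 when only these 2 days entered the fit. None of the 80 cytosolic ribosomal protein genes passed. Since only 0.277% of all genes passed, this count cannot tell whether their steps agreed. The median of their heavy-polysome step minus cytoplasmic step was -0.74, beside -0.02 over all genes.

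**Figure D4:**
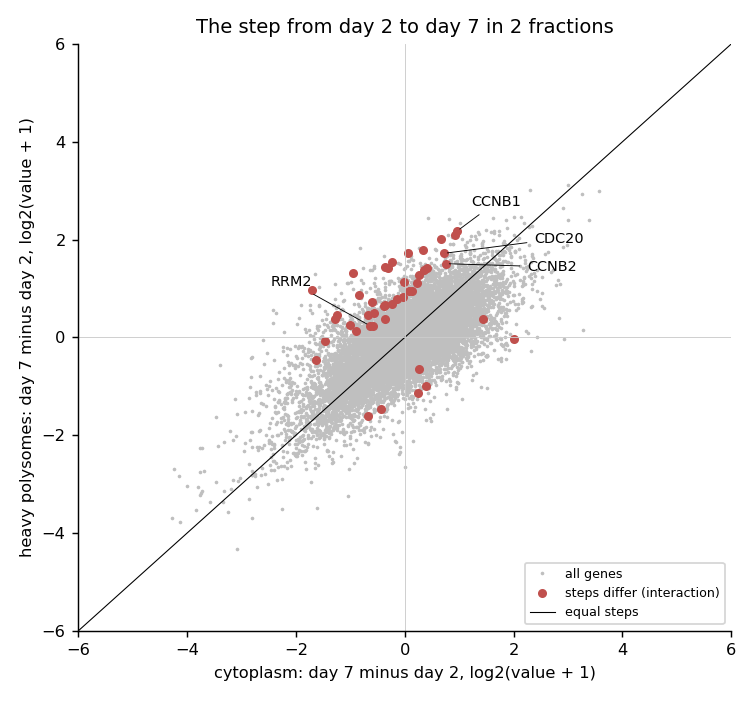
Difference of day 7 minus day 2 on the log2(value + 1) scale in the cytoplasm (horizontal) and in heavy polysomes (vertical), 1 grey point a gene, with the line of equal steps. The 44 genes that passed the interaction test are red, 37 of them above the line; CCNB1 lies at 0.96 and 2.17.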

How the data were processed

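The tools named in the submitters' processing notes are STAR 2.7.9a, featureCounts of Subread 2.0.1, DESeq2 1.30.1, cutadapt 3.2 and FastQC 0.11.9, and the build is GRCh38. The role of each is not given in the sources used here. The deposited table holds a signal per gene and library: a read count divided by a size factor. Its low values are whole multiples of 1 step per library, so the deposited values gave back counts in all 36 libraries (100% of values whole within 0.01). Of 54 value columns, 18 matched no sample listed and were not used. The table lists 15891 genes, and genes without a row were not analysed here.

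Values were log2(value + 1) transformed. Genes at 10 or more in at least 3 cytoplasmic libraries were tested with limma 3.58.1 (R 4.3.3, trend, two-sided). All 18 cytoplasmic libraries entered as 6 day groups, with Benjamini-Hochberg adjustment over all genes and a threshold of 0.05. The heavy libraries were fitted alike, and the interaction over all 36. Errors after ± are standard errors of log2 differences unless marked SD. edgeR 4.0.16 and DESeq2 1.42.0 were run on the recovered counts as alternatives. The limma steps were tested on simulated counts that held no outlying library, length effect or letter effect. How such effects act on the calls was not tested there. Depth per cytoplasmic library of the 2 days was 41959627 to 103630224 reads.

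Samples were paired by letter in the within-letter differences and in the fits with the letter as a block. This pairing rests on their batch labels. The main fits held no term for the letter, so the 3377 calls come from an unpaired comparison. The deviations of day 2 and day 7 from their group means correlated at 0.49 in A, 0.22 in B and 0.07 in C, and over all 45 same-letter pairs of cytoplasmic days the mean was 0.19, with 27 over 0.1.

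The comparison and the 38 gene lists were chosen with earlier results of these data known. Genes named are the 12 largest called rises and falls (protein-coding, mean of at least 100 on either day, 1 direction in the 3 letters), the 4 largest changes called in a list, up to 2 more in the other direction, and a fixed set of 21 genes. CALR, CANX, CCNB2, CDC20, DKK1, ERBB3, H1-2, KLK10, KRT81, the KRTAP2 genes, NRARP and RPL3 were named after their values were seen. Gene positions are from GENCODE 29 and promoter windows from RefSeq (GRCh38.p14), which matched 10730 genes. The motifs were chosen with the results known, and each one searched is given. Some genes that the rule names are not reported here.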

Additional observations from a re-analysis of the deposited data

Results flagged for a closer look

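In 4 genes of the lists, the step from day 2 to day 7 differed between heavy polysomes and cytoplasm by the interaction test (limma, adjusted over 15891 genes). CCNB1 had a difference between the steps of 1.21 (adjusted p = 0.000347), with mean normalised counts of 1826 at day 2 and 8233 at day 7 in heavy polysomes and of 2192 and 4278 in the cytoplasm. CDC20 had 1.00 (adjusted p = 0.0368), from a heavy-polysome step of 1.72 and a cytoplasmic step of 0.72. For CCNB2, the heavy-polysome step was 1.51, the cytoplasmic step 0.75 and their difference 0.75 (adjusted p = 0.0368). RRM2 had 0.88 (adjusted p = 0.0368): its cytoplasmic values fell by 0.64, while the heavy-polysome difference of 0.24 did not pass the test (limma adjusted p = 0.0576). The cytoplasmic day-7 library A, which stood apart, was the lowest of its group for RRM2 and CCNB1 and the highest for CDC20 and CCNB2.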

How the results depend on the processing

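The count of 3377 called genes was between 3330 and 3458 with pseudocounts of 0.5 and 10, a filter of 50, no filter, TMM scaling, edgeR or voom, and 4336 with DESeq2. With only the 6 libraries of the 2 days it was 1070 (370 higher, 700 lower, 964 at least 2-fold). With array weights it was 10195 (5220 higher, 4975 lower, 3600 at least 2-fold). With the letter as a replicate block it was 5120, of which 2482 were higher, and with the block and only the 2 days 2437 were higher. The block changed the call of EEF1A1 and LMNB1 and of no other of the 178 named genes. Total-sum scaling gave 987 higher genes, and 947 without ribosomal protein and mitochondrial genes, where the median gene lay at -0.19 and -0.21. Leaving out 1 library or letter gave 1418 to 5000 genes in all, 515 to 2592 higher, 851 to 2408 lower and 1146 to 3345 at least 2-fold. For the difference between the fractions, 44 genes became 139 with the replicate block (112 higher in heavy polysomes, 27 lower), 0 with only the 2 days, where 0 were higher and 0 lower, and 2 to 26 with a library or letter left out (2 to 21 higher, 0 to 5 lower). The cause of these moves was not tested. Of 4094 repeats of the named genes' calls over 23 alternatives, 3663 stayed on their side of the threshold, 416 lost the call, 15 gained it and 0 changed direction.

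List medians are given minus the median of all genes, a choice made after seeing the data. With array weights they moved by more than 1 SD between letters for p53 targets -0.62, dna replication 0.083, ribosome biogenesis 0.50, mitochondrial mRNA -1.68, intestinal differentiation -0.52, ERBB ligands and receptors -0.83, notch -0.15, other lineage markers -1.34. A filter of 50 gave 0.17 for DNA replication, and edgeR and DESeq2 gave -0.65 and -0.65 for epithelial junction and keratin. Leaving out 1 library or letter gave ranges of dna replication 0.10 to 0.17, fluoropyrimidine and nucleotide 0.10 to 0.26, cytosolic ribosomal proteins 0.21 to 1.07, TOP translation factors 0.36 to 0.67, ribosome biogenesis 0.34 to 0.53, ATF4 targets -0.059 to 0.14, interferon stimulated -0.12 to 0.18, NF-kB and secretory -0.42 to -0.21, cholesterol synthesis -0.61 to -0.30, respiratory chain nuclear 0.28 to 0.91, mitochondrial mRNA -1.61 to -0.72, mitochondrial ribosomal proteins 0.25 to 0.73, apoptosis -0.21 to -0.047, epithelial junction and keratin -0.75 to -0.32, YAP targets -1.15 to -0.58, ERBB ligands and receptors -0.82 to -0.58, notch -0.63 to -0.16, senescence and lamins -0.49 to -0.23, G1 cyclins and CDKs -0.33 to 0.011, initiation and mTOR -0.24 to 0.12, other lineage markers -1.39 to -1.07.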

Other observations

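Several gene families were gathered after their values were seen, so their counts describe these libraries and support nothing. Over all genes, 9.48% rose and 11.8% fell. Of 40 laminin, collagen and integrin genes, 22 fell and none rose, and 18 fell without the day-7 library A. Their median exon length was 7515 bases beside 4280 over all genes, and the step correlated with log2 exon length at -0.29 across all genes, -0.20 without that library and -0.40 within letter C. The part of length in the falls of this family was not tested. ITGA2, a collagen-binding integrin, had 417, 1003 and 1688 at day 2 and 72.4, 284 and 207 at day 7 (log2 difference -2.45 ± 0.48, limma adjusted p = 0.00234). Of 15 semaphorins, guidance ligands, 9 fell and none rose (6 fell without that library), and of 9 plexins and neuropilins, their receptors, 3 fell (2 without it). Both are also long, at medians of 6157 and 10944 bases. SEMA7A, a membrane-anchored semaphorin, had 1379, 2784 and 2051 at day 2 and 153, 323 and 266 at day 7 (log2 difference -3.07 ± 0.37, limma adjusted p = 5.94e-05). Among 8 ligands of the lymphocyte receptor NKG2D, 5 fell, also without the day-7 library A. ULBP2 had 1955, 2081 and 1804 at day 2 and 161, 359 and 363 at day 7 (log2 difference -2.81 ± 0.27, limma adjusted p = 7.96e-06), and MICB a difference of -1.29 ± 0.24.

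Immediate early genes, which growth factors and stress induce within minutes, moved upward in part. Of 24, 9 rose and 3 fell, with the same counts without the day-7 library A, where 9.48% of all genes rose and 11.8% fell with all libraries. FOS had 2124, 2163 and 2734 at day 2 and 4808, 7917 and 9517 at day 7 (log2 difference 1.62 ± 0.25, limma adjusted p = 0.000493). Its mean before the drug, 9429 ± 194 (SD), was above its day-7 mean of 7414. FOSL1 and FOSL2, of the same family, had differences of -0.64 ± 0.17 and -1.26 ± 0.31. The protocol detached the cells with trypsin before lysis, and the part of handling in these values was not tested. Of 29 heat shock and chaperone genes with values, 7 rose and 3 fell, and 5 rose and 4 fell without the day-7 library A. The falls with all libraries were HSPB8, DNAJB2 and DNAJB5, at -1.05, -0.69 and -1.30. HSPA1A and HSPA1B, neighbours of the same family, are both among the rises, and the split of reads between them was not tested. HSPA8, the constitutive cytosolic chaperone, had 27756, 29105 and 31356 at day 2 and 101559, 87013 and 85334 at day 7 (log2 difference 1.63 ± 0.15, limma adjusted p = 7.94e-06), and HSPE1, a mitochondrial chaperonin subunit, a difference of 1.91 ± 0.43. The HSPA8 mean before the drug, 107405 ± 5858 (SD), was above the values of both days. HSPE1 had 2012 ± 344 (SD) before the drug and 9166, 2528 and 3127 at day 7, a mean of 4941 raised by library A. Without the day-7 library A its difference was 1.34 (limma adjusted p = 0.0287). Of 5 metallothioneins with values, 3 rose, 2 of them without the day-7 library A. These small genes have close copies, so the split of reads between them is uncertain.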
